A study of Mus musculus with 11 samples.

Results

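The tricarboxylic acid cycle enzymes described here are 9 genes, Cs, Idh3a, Idh3b, Dlat, Dlst, Ogdh, Suclg2, Mdh2 and Fh1, taken by symbol from a list of cycle enzymes. The list was chosen with earlier results of these data known. Counts of its members beside the share of all genes are therefore a description and not a test of the cycle. All 9 were found among the 25562 gene symbols of the expression table, and all 9 passed the filter on low values in every comparison. The 11 libraries hold RNA of splenic CD8+ T cells, the cytotoxic arm of adaptive immunity, which were purified with a kit from mice of the inbred C57BL/6 strain. All groups spent 22 h in pretreatment and 24 h under activation, with 1 µg/mL of anti-CD3 and 0.5 µg/mL of anti-CD28, so no group shows resting cells. The 4 AOAH libraries received ethanol and 10 µg/mL of recombinant human acyloxyacyl hydrolase (AOAH), a His-tagged lipase that removes acyl chains from lipopolysaccharide and phospholipids. The 3 PC libraries received 60 µM PC16:0-20:4, a phosphatidylcholine that carries palmitic and arachidonic acid, with PBS that held 10% glycerol. The 4 vehicle libraries received ethanol with the glycerol PBS. No glycerol is stated for AOAH, so AOAH and its buffer cannot be told apart. On 3 points the labels conflict or are unclear: AOAH during pretreatment or during activation, antibody bound to the plate or to beads, and interleukin-2 present or absent. Nothing in them says that the libraries came from separate mice or cultures, so p-values measure only the spread between libraries, which may be technical.

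The cycle runs in the mitochondrial matrix. It takes the acetyl group of acetyl-CoA, releases its carbon as CO2, and passes the electrons to NAD and to the respiratory chain. Its intermediates also serve as building blocks, citrate for lipids and oxaloacetate for aspartate and nucleotides, and T cells raise both uses when they leave rest and begin to divide. Dlat belongs to the pyruvate dehydrogenase complex, which feeds the cycle rather than being a step of it. The other 8 encode subunits of enzymes that catalyse its steps.

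Levels are given as TPM, a measure scaled to a fixed total per library that gives a gene's share of the transcripts corrected for transcript length, which allows genes to be compared with each other. In the vehicle libraries the order was Mdh2 at 353 ± 6.39 TPM, Cs at 150.1 ± 2.80, Idh3b at 128 ± 4.37, Ogdh at 99.8 ± 6.01, Idh3a at 95.9 ± 1.48, Dlst at 88.8 ± 2.36, Fh1 at 70.2 ± 2.11, Dlat at 42.9 ± 0.295 and Suclg2 at 37.3 ± 1.73 TPM (SD, n = 4). Of the neighbours in this order, only Ogdh and Idh3a overlapped between vehicle libraries. The order was the same in AOAH except that Idh3a stood above Ogdh, with overlap, and in PC except that Idh3a stood below Dlst, where only Ogdh and Dlst overlapped. Summed over the 9 genes, the level was 1120 to 1137 TPM with AOAH, 1006 to 1023 TPM with PC and 1050 to 1085 TPM with vehicle, so the 3 groups did not overlap. Over the same libraries, transcripts of the mitochondrial genome made up 3.40% to 3.56% of the TPM in the AOAH libraries, 3.44% to 3.61% in PC and 3.39% to 3.62% in vehicle, and these ranges overlapped.

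**Figure D1:**
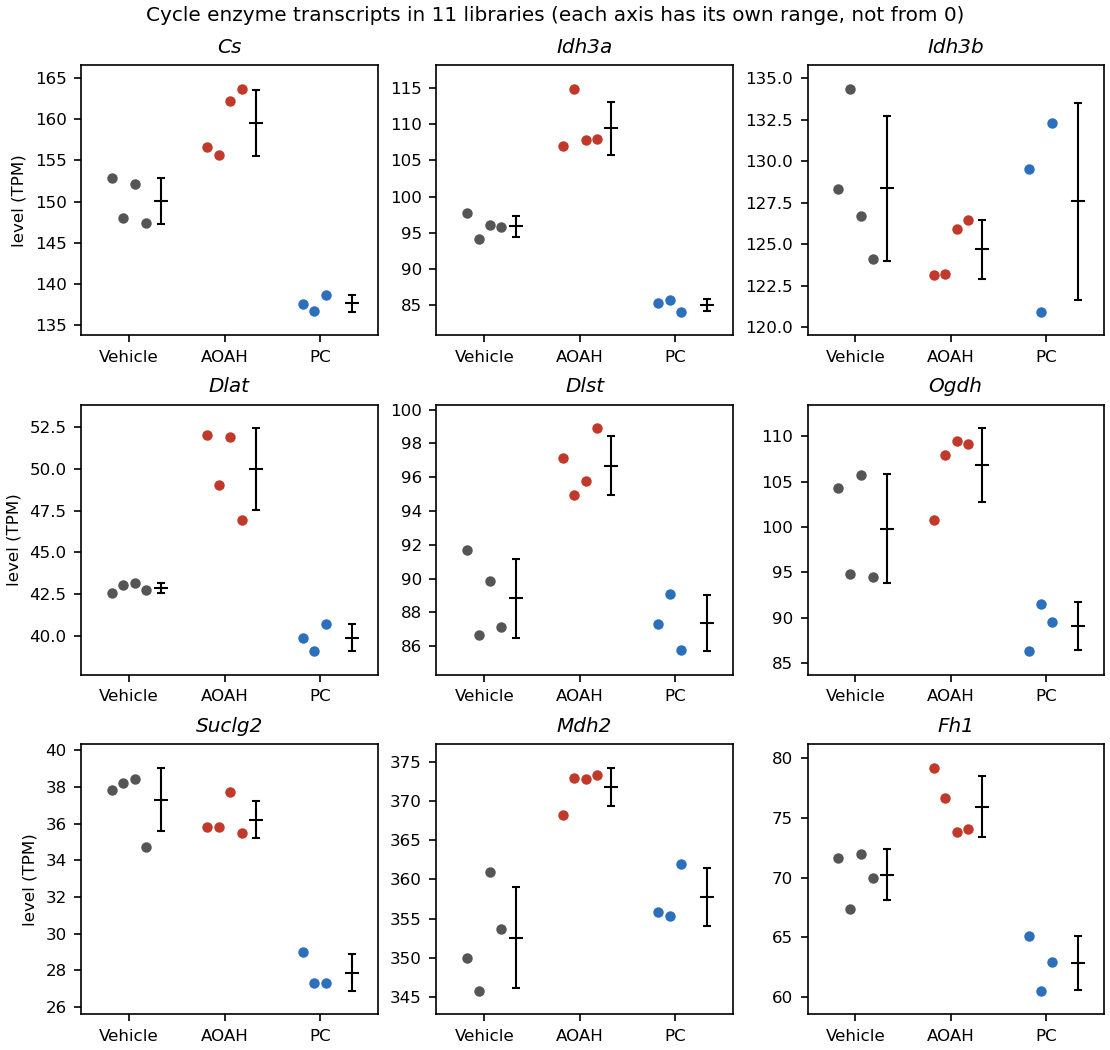
TPM of the 9 enzymes in each library (points, by group) with the mean and SD of each group (bars; n = 4 AOAH, 3 PC and 4 vehicle). AOAH lies above vehicle and vehicle above PC for Cs, Idh3a, Dlat and Fh1 with no overlap, while Idh3b overlaps in all 3 groups. The share of all genes with this order of the 3 groups was not computed, so whether it is unusual among the members is not known.

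Promoter sequences are shown for Cs and Fh1, which differed in the same order of groups, for Dlat, which was called against vehicle with AOAH but not with PC, and for Suclg2, which had the largest change with PC. Each is the 250 bases before the annotated start, read 5′ to 3′ on the gene's strand, from RefSeq with build GRCm38.p6. Capitals mark matches on either strand to the CCAAT box (CCAAT or ATTGG) or to the GC box (GGGCGG or CCGCCC). The regions are chr10:128337477-128337726 on the plus strand for Cs, chr1:175625636-175625885 on the minus strand for Fh1, chr9:50659781-50660030 on the minus strand for Dlat and chr6:95718847-95719096 on the minus strand for Suclg2.
Cs: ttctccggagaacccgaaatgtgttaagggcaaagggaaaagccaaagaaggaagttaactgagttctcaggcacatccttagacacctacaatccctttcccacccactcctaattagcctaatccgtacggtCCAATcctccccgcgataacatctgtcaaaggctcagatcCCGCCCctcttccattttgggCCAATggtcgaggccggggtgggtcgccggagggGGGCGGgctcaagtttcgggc
Fh1: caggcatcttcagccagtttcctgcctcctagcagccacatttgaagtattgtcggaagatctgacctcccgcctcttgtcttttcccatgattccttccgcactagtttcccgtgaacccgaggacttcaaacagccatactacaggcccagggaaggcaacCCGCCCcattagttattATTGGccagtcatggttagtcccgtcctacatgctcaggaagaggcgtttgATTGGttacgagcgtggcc
Dlat: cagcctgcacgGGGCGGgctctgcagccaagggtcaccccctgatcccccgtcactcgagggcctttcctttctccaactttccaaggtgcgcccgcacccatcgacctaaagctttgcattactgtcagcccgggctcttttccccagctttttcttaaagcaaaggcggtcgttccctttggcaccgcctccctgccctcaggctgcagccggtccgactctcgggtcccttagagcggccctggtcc
Suclg2: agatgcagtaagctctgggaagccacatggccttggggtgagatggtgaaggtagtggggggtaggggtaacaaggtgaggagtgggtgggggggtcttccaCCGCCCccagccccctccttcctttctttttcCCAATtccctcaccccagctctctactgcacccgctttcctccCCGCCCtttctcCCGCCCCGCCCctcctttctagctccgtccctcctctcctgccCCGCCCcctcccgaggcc
Cs and Fh1 each held 2 CCAAT boxes, Suclg2 held 1 and Dlat none. Suclg2 held 5 GC boxes, of which 2 overlap each other, Cs held 2, and Fh1 and Dlat held 1 each. RefSeq promoters were matched for 8 of the 9 genes, all but Idh3a. Over those 8, a CCAAT box was found in 5 and a GC box in 7, while 33.8% and 32.7% of all 32851 promoters of the table held them. The members were counted by gene, with a match in any annotated start, and the shares by single promoter. Ogdh is among both the 5 and the 7. Ogdh, which has 6 annotated starts and so more sequence to match, was the lone member with an E-box (CACGTG, in 6.02% of all promoters) and with the NRF1 motif (GCGCATG or CATGCGC, in 3.24%). The ETS site (CCGGAAG or CTTCCGG, in 6.91%) was found in none of the 8. A match describes the letters of these windows and is not evidence of binding.

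The first comparison was of AOAH with vehicle. Idh3a, Dlat, Dlst, Mdh2, Cs and Fh1 rose with AOAH, by 5.45% (Mdh2) to 16.6% (Dlat), and none of the 9 fell. Ogdh, Idh3b and Suclg2 did not pass the test. Changes were tested with limma on log2(TPM + 1) across all 11561 genes that averaged 1 TPM or more, two-sided, and a gene is called at a Benjamini-Hochberg adjusted p under 0.05. Limma called 25.2% of all genes tested in either direction, 13.1% higher and 12.1% lower with AOAH, beside the 6 of 9 members. All AOAH libraries lay above all vehicle libraries for those 6, while 28.8% of all genes had groups that did not overlap, 15.1% in that direction. The median log2 change was 0.10 over the 9 members and 0.01 over all genes. The count fell to 3 with the batch number as a block, to 2 with quantile normalization, and to 3 without AOAH 4 or without vehicle 2.

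Idh3a encodes the catalytic subunit of the NAD-dependent isocitrate dehydrogenase, a rate-setting step that releases CO2. Its level was 107, 115, 108 and 108 TPM in AOAH 1 to 4, 85.3, 85.7 and 84.1 TPM in PC 1 to 3, and 97.7, 94.1, 96.0 and 95.8 TPM in vehicle 1 to 4. Every AOAH library lay above every vehicle library, and every PC library lay below. The log2 change with AOAH was 0.19 ± 0.03 (SE, limma adjusted p = 0.00238), larger in size than that of 69.5% of the genes tested. The call held in all 16 alternative settings tried, with adjusted p from 5.39e-04 to 0.0184.

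Dlat encodes the acetyltransferase of the pyruvate dehydrogenase complex, which hands the acetyl group to coenzyme A. It stood at 52.0, 49.1, 51.9 and 47.0 TPM in AOAH 1 to 4, 39.9, 39.1 and 40.7 TPM in PC 1 to 3, and 42.5, 43.1, 43.2 and 42.7 TPM in vehicle 1 to 4. The AOAH libraries again lay above all others, with more spread (SD 2.44 TPM) than the vehicle libraries (SD 0.295 TPM). The log2 change with AOAH was 0.22 ± 0.04 (SE, limma adjusted p = 0.00449), and this call too held in all 16 settings.

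Dlst encodes the succinyltransferase core of the alpha-ketoglutarate dehydrogenase complex, which makes succinyl-CoA. Levels of Dlst were 97.1, 94.9, 95.8 and 98.9 TPM in AOAH, 87.3, 89.1 and 85.8 TPM in PC, and 91.7, 86.7, 89.8 and 87.1 TPM in vehicle. All 4 AOAH libraries were higher than the vehicle libraries, while PC and vehicle overlapped. The log2 change with AOAH was 0.12 ± 0.03 (SE, limma adjusted p = 0.0151), and quantile normalization ended the call (adjusted p = 0.0620).

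Mdh2, the mitochondrial malate dehydrogenase that regenerates oxaloacetate, was the most abundant of the 9. It stood at 368, 373, 373 and 373 TPM in AOAH, 356, 355 and 362 TPM in PC, and 350.0, 346, 361 and 354 TPM in vehicle. AOAH lay above vehicle by a small margin with no overlap, and PC lay within the vehicle range except for 1 library at its upper end. The log2 change with AOAH was 0.08 ± 0.02 (SE, limma adjusted p = 0.0206). The call was lost without AOAH 4 (adjusted p = 0.0558), without vehicle 2 (0.0606), with quantile normalization (0.0513) and with the batch number as a block (0.0536).

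Cs, citrate synthase, joins acetyl-CoA to oxaloacetate in the entry step. Its levels were 157, 156, 162 and 164 TPM in AOAH, 138, 137 and 139 TPM in PC, and 153, 148, 152 and 147 TPM in vehicle. The 3 groups did not overlap, and the PC libraries lay closest together (SD 1.01 TPM). With AOAH the log2 change was 0.09 ± 0.03 (SE, limma adjusted p = 0.0412). This call was lost in 9 of 16 settings: no filter (0.0787), quantile normalization (0.412), the batch block (0.0885), and without AOAH 3 (0.0959), AOAH 4 (0.109) or any one of vehicle 1 (0.0507), vehicle 2 (0.102), vehicle 3 (0.0580) and vehicle 4 (0.10).

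Fh1 encodes fumarase, which hydrates fumarate to malate. It stood at 79.2, 76.6, 73.8 and 74.0 TPM in AOAH, 65.1, 60.6 and 63.0 TPM in PC, and 71.7, 67.4, 72.0 and 69.9 TPM in vehicle. The groups did not overlap. With AOAH the log2 change was 0.11 ± 0.04 (SE, limma adjusted p = 0.0482), just under the threshold. The call was lost on leaving out any 1 library, with adjusted p from 0.0551 without AOAH 3 to 0.120 without vehicle 2, and also with no filter (0.0925), quantile normalization (0.138) and the batch block (0.0919).

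The other 3 members were not called with AOAH. Ogdh, the thiamine-dependent subunit that decarboxylates alpha-ketoglutarate, stood at 101, 108, 109 and 109 TPM in AOAH, 86.3, 91.5 and 89.6 TPM in PC, and 104, 94.8, 106 and 94.5 TPM in vehicle. AOAH 1 lay below 2 of the vehicle libraries, and the log2 difference from vehicle was 0.10 (95% interval -0.01 to 0.20, limma adjusted p = 0.162). Idh3b encodes a subunit of the same isocitrate dehydrogenase as Idh3a that does not carry the catalytic site. It stood at 123, 123, 126 and 126 TPM in AOAH, 129.5, 121 and 132 TPM in PC, and 128, 134, 127 and 124 TPM in vehicle, with overlap between all groups. Its log2 difference from vehicle was -0.04 (95% interval -0.11 to 0.03, limma adjusted p = 0.347). Idh3b shares exon sequence on the opposite strand with Nop56, a ribosome assembly gene at 677 to 697 TPM in AOAH, 552 to 592 TPM in PC and 606 to 626 TPM in vehicle, and whether counting used strand is not given in the sources used here. The other 8 members share no exon sequence with another annotated gene.

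Suclg2 encodes the GDP-forming beta subunit of succinyl-CoA ligase, the step that makes a nucleoside triphosphate directly. The values were 35.8, 35.8, 37.7 and 35.5 TPM in AOAH, 29.0, 27.3 and 27.3 TPM in PC, and 37.8, 38.2, 38.5 and 34.7 TPM in vehicle. AOAH and vehicle overlapped, with vehicle 4 the lowest of both groups, and the PC libraries lay below all 8 others. The log2 difference of AOAH from vehicle was -0.04 (95% interval -0.14 to 0.06, limma adjusted p = 0.53).

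In the PC comparison, Suclg2, Idh3a, Ogdh, Fh1 and Cs fell and none of the 9 rose. PC 1 to 3 were set against vehicle 1 to 3, because vehicle 4 is not labelled for this comparison. Limma called 19.5% of the 11630 genes tested, 11.2% lower and 8.26% higher with PC. The median log2 change was -0.13 over the 9 members and -0.01 over all genes. The count fell to 3 with the batch block or no filter, to 3 without PC 1 or PC 3, and to 2 without PC 2, vehicle 1 or vehicle 3. As the vehicle libraries also served the AOAH comparison, the changes with AOAH and with PC are not independent of each other.

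Suclg2 changed most, from 38.2 ± 0.314 TPM in vehicle 1 to 3 to 27.9 ± 0.987 TPM with PC (SD, n = 3 in each group), a difference of -27.0%. The log2 change was -0.44 ± 0.04 (SE, limma adjusted p = 0.00149), larger in size than that of 91.3% of the genes tested, and the call held in all 15 settings. Idh3a changed by -0.17 ± 0.03 (log2, SE, limma adjusted p = 0.00987) and was likewise called in all 15. The difference of Idh3a in TPM was -11.4%. Idh3a was the lone member whose calls with AOAH and with PC held in every setting tried.

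Cs changed by -0.13 ± 0.03 (log2, SE, limma adjusted p = 0.0158) with PC, and this call was lost without PC 2 (0.0545), vehicle 1 (0.0610) or vehicle 3 (0.0590). Ogdh had a log2 change of -0.19 ± 0.05 (limma adjusted p = 0.0403), and its PC libraries lay below all 4 vehicle libraries. The call of Ogdh was lost with vehicle 4 included (0.0535), with no filter (0.105), with the batch block (0.0860), and without PC 1 (0.114), PC 2 (0.0720), PC 3 (0.0977), vehicle 1 (0.121) or vehicle 3 (0.118). Fh1 had a log2 change of -0.16 ± 0.04 (limma adjusted p = 0.0453). Its call was lost with no filter (0.107), TMM rescaling (0.0658) and the batch block (0.0528), and without PC 1 (0.0574), PC 2 (0.130), PC 3 (0.112), vehicle 1 (0.132) or vehicle 3 (0.131).

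The remaining 4 members did not pass the test with PC. Dlat was 7.03% lower in TPM with no overlap between the groups, a log2 difference of -0.10 (95% interval -0.19 to -0.02, limma adjusted p = 0.10). Dlst differed by -0.03 (95% interval -0.12 to 0.05, adjusted p = 0.566), Idh3b by -0.03 (-0.13 to 0.08, adjusted p = 0.727) and Mdh2 by 0.02 (-0.04 to 0.08, adjusted p = 0.576), all on the log2 scale by limma. The sign for Idh3b turned with quantile normalization (0.00344) and without PC 2 (0.0125). Dlst, Idh3b and Mdh2 overlapped between PC and vehicle, and for the other 6 every PC library lay below every vehicle library. Over all genes, PC and vehicle 1 to 3 did not overlap in 39.2%, with PC below in 21.4% and above in 17.9%.

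**Figure D2:**
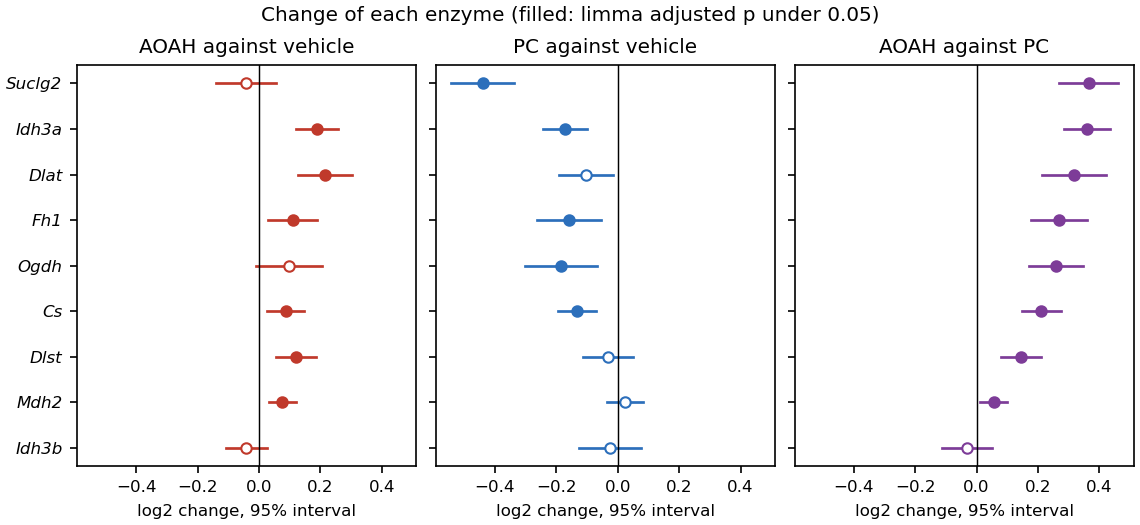
Log2 change of each of the 9 enzymes with its 95% interval in the 3 comparisons, from limma on log2(TPM + 1). With AOAH the changes reach from -0.04 to 0.22 and with PC from -0.44 to 0.02 against vehicle.

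AOAH and PC were also compared with each other, a contrast that needs no vehicle library. It used the same AOAH and PC libraries as the comparisons with vehicle, so it is not independent of them. The groups differ in both the enzyme and the lipid, so a difference cannot be assigned to either. Idh3a, Suclg2, Dlat, Fh1, Ogdh, Cs, Dlst and Mdh2 were higher with AOAH, and Idh3b was not called. The 8 members stand beside 24.3% of the 11596 genes tested called higher, 21.5% called lower and 45.8% called in either direction. The median log2 difference was 0.26 over the members and 0.00 over all genes. Suclg2 differed by 0.37 ± 0.04 (SE, limma adjusted p = 2.44e-04), Idh3a by 0.36 ± 0.03 (adjusted p = 8.00e-05) and Dlat by 0.32 ± 0.05 (adjusted p = 8.03e-04). Fh1 differed by 0.27 ± 0.04 (limma adjusted p = 8.98e-04), Ogdh by 0.26 ± 0.04 (0.00102), Cs by 0.21 ± 0.03 (4.78e-04) and Dlst by 0.14 ± 0.03 (0.00405). For these 7 the call held in all 15 settings. Mdh2 differed by 0.06 ± 0.02 (limma adjusted p = 0.0428) and was lost in 9 of 15 settings: no filter (0.0675), quantile normalization (0.324), the batch block (0.129), and without AOAH 2 (0.0811), AOAH 3 (0.0830), AOAH 4 (0.0941), PC 1 (0.116), PC 2 (0.120) or PC 3 (0.0597). All 8 had every AOAH library above every PC library, a pattern seen in 26.8% of all genes, with no overlap in either direction in 50.7%. Idh3b differed by -0.03 (95% interval -0.11 to 0.05, limma adjusted p = 0.490).

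Subunits of the same enzyme did not all move together. The isocitrate dehydrogenase is built from Idh3a, Idh3b and Idh3g, and Idh3g was called in none of the 3 comparisons with TPM as deposited (lower with AOAH than with vehicle or PC after quantile normalization), at 158 ± 1.94 TPM in AOAH, 166 ± 5.75 TPM in PC and 166 ± 5.47 TPM in vehicle (SD). The ratio of Idh3a to Idh3g in TPM was 0.672 to 0.732 with AOAH, 0.488 to 0.529 with PC and 0.559 to 0.610 with vehicle, so the 3 groups did not overlap. The ratio of Idh3b to Idh3g was 0.785 to 0.803 with AOAH, 0.746 to 0.796 with PC and 0.737 to 0.802 with vehicle, with overlap throughout. Ratios are given as a description, and no test of them was made.

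Succinyl-CoA ligase pairs the alpha subunit Suclg1 with either Suclg2 or the ADP-forming beta subunit Sucla2. Neither Suclg1 nor Sucla2 was called in any of the 3 comparisons. Sucla2 stood at 61.6 ± 2.78 TPM in AOAH, 57.3 ± 2.53 TPM in PC and 59.4 ± 1.01 TPM in vehicle (SD), and its log2 difference between PC and vehicle was -0.06 (limma adjusted p = 0.344). The ratio of Suclg2 to Sucla2 was 0.458 to 0.503 in PC, below the 0.554 to 0.635 of AOAH and the 0.598 to 0.638 of vehicle, and the latter 2 groups overlapped. The ratio of Cs to Mdh2, which share oxaloacetate as substrate and product, was 0.383 to 0.387 in PC, 0.417 to 0.439 in AOAH and 0.417 to 0.437 in vehicle.

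**Figure D3:**
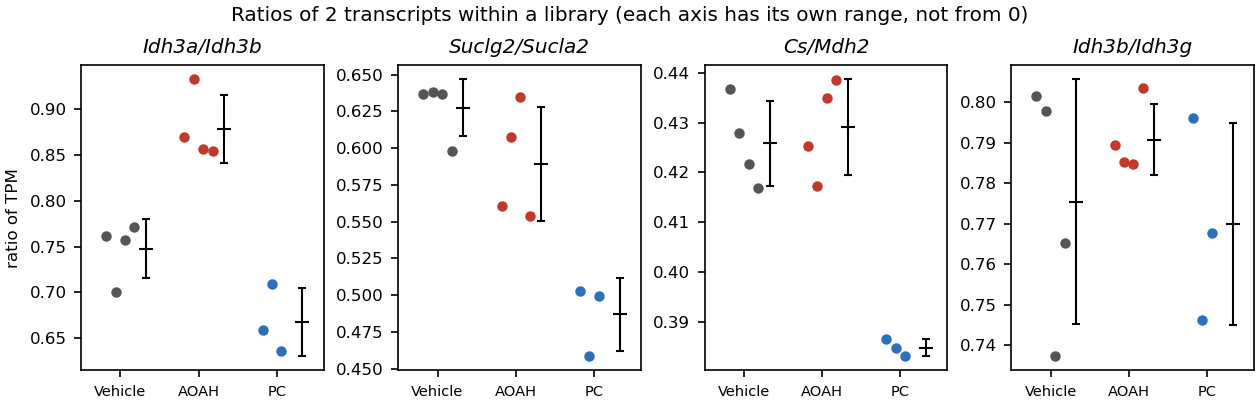
Ratios of TPM between subunits or neighbouring enzymes in each library (points) with the group mean and SD (bars; n = 4 AOAH, 3 PC and 4 vehicle). Idh3a to Idh3b is higher in AOAH than in PC and vehicle, which overlap each other. Suclg2 to Sucla2 is low in PC only.

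The other lists of genes stand beside the same all-gene shares called in either direction, 25.2% with AOAH, 19.5% with PC and 45.8% between AOAH and PC, and no list was tested against the members. Of the other genes of the cycle and of the pyruvate dehydrogenase complex, 13 were tested, of which 2 were higher and none lower with AOAH, and 5 were lower and none higher with PC; between AOAH and PC, 7 were higher and none lower with AOAH. Their median log2 change was 0.06 with AOAH and -0.07 with PC. Sdhd, a membrane anchor of succinate dehydrogenase, rose by 0.11 with AOAH (limma adjusted p = 0.0117) and fell by 0.24 with PC (adjusted p = 0.00408), both log2. Pdhx, which anchors the dihydrolipoamide dehydrogenase in the pyruvate dehydrogenase complex, rose by 0.19 with AOAH (limma adjusted p = 0.0396). With PC, Sdhb fell by 0.17 (limma adjusted p = 0.00624), Pdha1 by 0.17 (0.0103) and Sdha by 0.16 (0.0194) on the log2 scale, and these 3 stood among the 4 of lowest p between AOAH and PC with Sdhd (log2 difference 0.36, adjusted p = 1.03e-04). Idh2, the fifth to fall with PC and named after its values were seen, makes NADPH from isocitrate (log2 change -0.21). With AOAH the calls turned on the scaling: quantile normalization called Pdhx higher and Idh3g, Sdhb and Idh2 lower, and lost Sdhd (adjusted p = 0.126). Pdhx was lost with the batch block (adjusted p = 0.0879), with no filter, and without AOAH 2, AOAH 3, AOAH 4, vehicle 1, vehicle 2 or vehicle 4, which left Sdhd alone. With PC 3 of the 5 falls were called without vehicle 1, without vehicle 3 or with no filter.

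The next list held genes that attach lipoate, switch the pyruvate dehydrogenase complex or assemble succinate dehydrogenase. Of 13 tested, 1 was higher and 1 lower with AOAH, 1 was lower with PC, and 2 were higher and 2 lower in AOAH against PC. The list median of the log2 change was -0.03 with AOAH and -0.04 with PC. The lipoate genes Lias, Lipt1 and Lipt2, named after their values were seen, were called in none of the 3 comparisons. All calls but that of Sdhaf1 were of kinases that turn the complex off by phosphorylation. Pdk2 fell with AOAH from 3.85 ± 0.395 to 2.59 ± 0.288 TPM (SD, n = 4, log2 change -0.43, limma adjusted p = 0.00957), and Pdk3 rose from 35.4 ± 1.99 to 40.0 ± 1.25 TPM (0.18, adjusted p = 0.0245). Pdk1 fell with PC (log2 change -0.39, limma adjusted p = 0.00488). Sdhaf1, an assembly factor of succinate dehydrogenase, was lower in AOAH than in PC by a log2 difference of -0.14, a call lost in 9 of 15 settings. The rise of Pdk3 with AOAH was lost with the batch block (adjusted p = 0.0725), with no filter, and without AOAH 2, AOAH 4, vehicle 2 or vehicle 4, while the calls of Pdk2 and Pdk1 named here held wherever they were tested.

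Among carriers that move cycle intermediates across the inner membrane, calls were higher with AOAH and lower with PC. Of 8 tested, 3 rose and none fell with AOAH, 3 fell and none rose with PC, and 4 were higher and 1 lower in AOAH against PC. Called or not, the carriers had a median log2 change of -0.004 with AOAH (4 positive, 4 negative) and -0.15 with PC (2 positive, 6 negative). Slc25a13, an aspartate-glutamate exchanger, stood at 21.4 ± 0.554 TPM in AOAH, 12.8 ± 0.621 TPM in PC and 17.1 ± 0.785 TPM in vehicle (SD), with log2 changes of 0.31 with AOAH (limma adjusted p = 0.00155) and -0.39 with PC (0.00770). Slc25a10, the dicarboxylate carrier, stood at 24.2 ± 0.904, 13.6 ± 0.892 and 21.2 ± 1.33 TPM, with log2 changes of 0.18 (limma adjusted p = 0.0334) and -0.65 (0.00164). Slc25a1, the citrate exporter, rose by 0.18 with AOAH (limma adjusted p = 0.0173), and Slc25a12, the other aspartate-glutamate exchanger, fell by 0.24 with PC (0.00792). Mpc1, a subunit of the mitochondrial pyruvate carrier named after its values were seen, was the one lower in AOAH than in PC (log2 difference -0.11), lost in 9 of 15 settings. With the batch block the rises of Slc25a1 (adjusted p = 0.0531) and Slc25a10 (0.0779) with AOAH were lost, and that of Slc25a10 also with no filter and without AOAH 1, AOAH 3, AOAH 4, vehicle 1 or vehicle 4. The 3 falls with PC held in all 15 settings.

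Enzymes that fill the cycle or draw on it were divided. Of 14 tested, 4 rose and 1 fell with AOAH, 1 rose and 3 fell with PC, and 8 were higher and 2 lower in AOAH against PC. The list median of the log2 change was 0.08 with AOAH and -0.10 with PC. With AOAH the transaminases Got1 (log2 change 0.16, limma adjusted p = 0.00295) and Got2 (0.15, 0.0331) rose. Aco1, a cytosolic aconitase named after its values were seen, rose too (0.15, limma adjusted p = 0.0344). The rise of Got2 was lost in 8 of 16 settings (highest adjusted p = 0.101): no filter, quantile normalization, and without AOAH 1, AOAH 3, AOAH 4, vehicle 2, vehicle 3 or vehicle 4. That of Aco1 was lost in 9 of 16 (highest 0.0851): the batch block (0.0801), no filter, and without any one AOAH library, vehicle 1, vehicle 2 or vehicle 4. Acss1, which activates acetate inside mitochondria, fell from 7.51 ± 0.443 to 4.45 ± 0.632 TPM with AOAH (SD, n = 4, log2 change -0.65, limma adjusted p = 0.00118). With PC, Mdh1 (-0.15, limma adjusted p = 0.0186), Me2 (-0.28, 0.0249) and Got2 (-0.23, 0.0294) fell on the log2 scale. Pck2, which makes phosphoenolpyruvate from oxaloacetate in mitochondria, rose with PC (log2 change 0.45, limma adjusted p = 0.00405). The calls of Got1, Acss1 and Pck2 against vehicle held in every setting. The count with AOAH was 3 with no filter and without any one of AOAH 1, AOAH 3, AOAH 4, vehicle 2 or vehicle 4, and quantile normalization gave 3 higher and 2 lower. The count with PC was 7, with 6 of them lower, in 1 fit over all 11 libraries, which includes vehicle 4. It was 2 without PC 1 or PC 2, and 1 (Pck2) with no filter, without vehicle 1 or without vehicle 3. The fall of Got2 with PC was lost in 6 of 15 settings, among them the batch block (limma adjusted p = 0.0577). That of Me2 was lost in 6 of 15 (highest limma adjusted p = 0.0796) and that of Mdh1 in 3 of 15 (highest 0.0672).

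The last list held genes outside the cycle that serve mitochondrial import, folding, membranes and genome upkeep. Of 24 tested, 13 rose and none fell with AOAH (median log2 change 0.14), 8 fell and none rose with PC (median -0.10), and 20 were higher and 1 lower in AOAH against PC (median 0.20). Hspd1, the matrix chaperonin, stood at 1121 ± 18.2 TPM in AOAH, 877 ± 11.6 TPM in PC and 957 ± 31.2 TPM in vehicle (SD), with log2 changes of 0.23 (limma adjusted p = 3.53e-04) and -0.14 (0.00923). The genome upkeep genes Tfam, Polg, Polg2 and Twnk, named after their values were seen, were not called against vehicle with AOAH or with PC. In AOAH against PC, Tfam (log2 difference 0.34), Polg (0.18) and Twnk (0.21) were called higher with AOAH (limma adjusted p = 0.0121 for each). Each of these calls was lost with the batch block only. The import genes Timm23 (0.17, limma adjusted p = 6.63e-04) and Timm50 (0.19, 0.00141) and the prohibitin Phb2 (0.15, 0.00154) rose with AOAH. With PC the outer membrane channels Vdac2 (-0.19, limma adjusted p = 0.00289) and Vdac1 (-0.24, 0.00508) and the cristae gene Immt (-0.18, 0.00972) fell. Polg2, an accessory subunit of the mitochondrial DNA polymerase, was the one lower in AOAH than in PC (log2 difference -0.22), lost in 8 of 15 settings. With PC the count of falls was 4 with the batch block, with no filter, with TMM rescaling, and without PC 2, PC 3, vehicle 1 or vehicle 3; with quantile normalization it was 5, without Hspd1 (adjusted p = 0.0716). In bulk RNA, fewer cells of a type and less RNA per cell cannot be told apart, and the part of mitochondrial content in the members' changes was not tested.

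**Figure D4:**
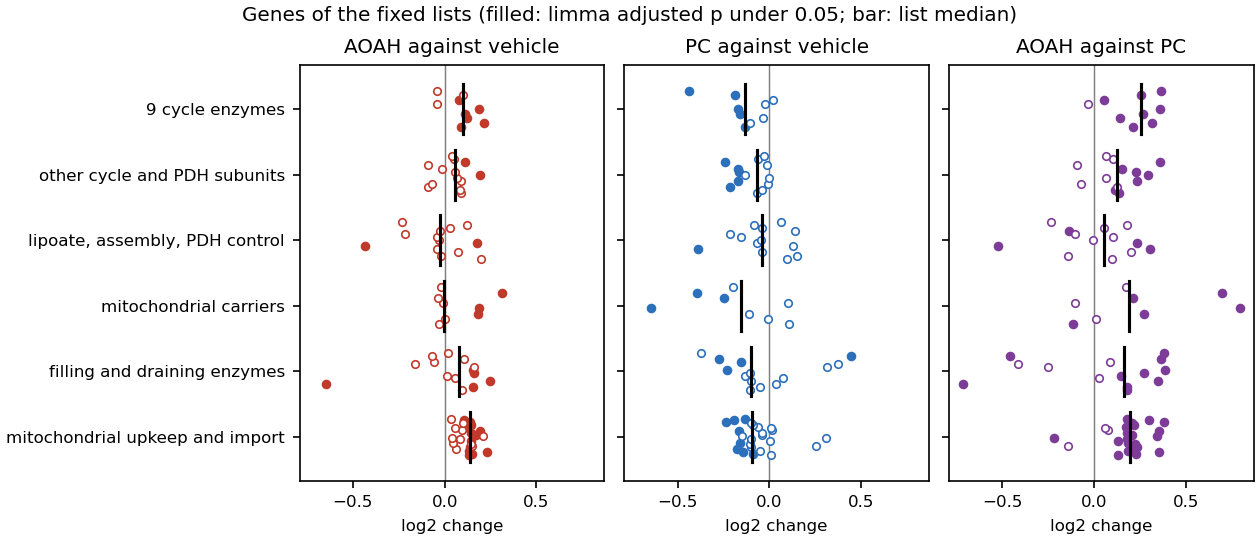
Log2 changes of the genes tested in each list (points) in the 3 comparisons. The members and the mitochondrial genes lie mostly above 0 with AOAH (medians 0.10 and 0.14) and mostly below 0 with PC (medians -0.13 and -0.10).

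By the criterion of the smallest mean absolute difference between centred log2 profiles, over 11 libraries and 8455 genes with at least 5 TPM, the 5 genes outside the lists closest to the mean profile of the 9 members were Srsf7 (0.0123), Eif4h (0.0130), Rrn3 (0.0143), Srsf2 (0.0147) and Nono (0.0156), against a median of 0.115 over all genes compared. Srsf7 stood at 515 ± 9.82 TPM in AOAH, 445 ± 2.30 TPM in PC and 482 ± 6.68 TPM in vehicle (SD). Among the members themselves Cs lay closest to the mean profile (0.0136) and Suclg2 farthest (0.0975).

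The CD8 T cell label was checked against markers, whose levels also moved with the groups. The 6 CD8 T cell markers summed to 1446 to 1475 TPM in AOAH, 1869 to 1925 TPM in PC and 1610 to 1658 TPM in vehicle. Limma called 4 of 6 lower with AOAH, beside 12.1% of all genes tested, and 6 of 6 higher with PC, beside 8.26%. The 3 CD4 T cell markers summed to 3.01 to 6.30 TPM with AOAH, 5.66 to 8.54 TPM with PC and 3.07 to 5.11 TPM with vehicle. Cd4 itself was under 1 TPM in every library. With PC, Cd40lg was called higher (log2 change 0.65, limma adjusted p = 0.0238) and Zbtb7b was not called. The 7 B cell markers summed to 132 to 142 TPM with AOAH, 168 to 175 TPM with PC and 153 to 157 TPM with vehicle, most of it from Ighm. Of the B cell markers, 4 of 7 were under 1 TPM in every library, among them Cd79a, Ms4a1 and Pax5, while Cd79b stood at 5.42 to 9.20 TPM and Ighd at 1.31 to 1.98 TPM. Cd79b had a log2 difference of -0.33 with PC (limma adjusted p = 0.0966) and Ighm was called higher. The 4 NK markers summed to 81.6 to 88.1 TPM with AOAH, 79.4 to 84.9 TPM with PC and 97.9 to 102 TPM with vehicle. Most of it came from Eomes, which was called lower with AOAH and with PC, and the other 3 were under 1 TPM in every library. Of 7 myeloid markers, 5 were in the table and summed to 4.26 to 4.84 TPM with AOAH, 5.86 to 7.16 TPM with PC and 4.77 to 8.24 TPM with vehicle. Dendritic cell and erythroid markers summed to at most 1.05 and 1.66 TPM. The part of these markers' shifts in the members' changes was not tested.

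The authors' deposited tables, made with DESeq2 for AOAH and for PC against vehicle, called fewer of the 9 at an adjusted p under 0.05. In the authors' deposited table for AOAH, 17.1% of the 12492 genes with an adjusted p were called, and of the members Idh3a (log2 fold change 0.19, adjusted p = 0.00198) and Dlat (0.22, adjusted p = 0.00295). In the authors' deposited table for PC, 13.4% of 11109 genes were called, and of the members Suclg2 (-0.44, adjusted p = 1.36e-05) and Ogdh (-0.17, adjusted p = 0.0216). In the authors' deposited table Idh3a had an adjusted p of 0.0620 with PC. The fold changes of the 9 genes had the same sign in the authors' deposited tables as by limma in both comparisons.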

How the data were processed

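Per the labels' protocols, polyadenylated RNA was sequenced as paired reads on a NovaSeq instrument from libraries with molecular identifiers and ERCC spike-ins. The authors deposited a table that holds log2 values of TPM plus 1, with RSEM and build mm39 named in the submitters' processing notes; the sources used here give no versions, annotation, strand setting or use of the identifiers. The deposited values summed to 998406 to 998655 TPM per library, with 11423 to 11739 genes at 1 TPM or more, and depth is unknown because TPM does not retain it. In the authors' deposited DESeq2 tables, each gene has a base mean (a signal, normalized counts averaged over libraries), a log2 fold change and p-values before and after adjustment. A repertoire table was not used here.

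Tests used limma 3.58.1 in R 4.3.3 with its trend and robust options, a pseudocount of 1 TPM and only genes that averaged 1 TPM or more in the comparison, and the code was tested on simulated data. A fold change on the log2(TPM + 1) scale understates the change of low genes. The AOAH comparison used all 4 vehicle libraries and the PC comparison vehicle 1 to 3. Groups and batch numbers come from the labels. Same-numbered libraries of different groups were checked by correlating their deviations from the group means across genes: r averaged -0.00332 over 10 pairs (-0.0794 to 0.118) and 0.00114 over 30 pairs with different numbers. The labels call the number a batch, so the pairing was taken from them for a fit with a block. Alternatives were pseudocounts of 0.1 and 5, no filter, a filter of 5 TPM, TMM rescaling of TPM, quantile normalization, the batch block, 1 fit over all 11 libraries, vehicle 4 included and each library left out. The 9 members and all gene lists were chosen with earlier results of these data known. All 9 members are named, of each other list up to 4 called genes of lowest p per comparison, and 5 genes by likeness of profile; others are marked where they appear, and results for some genes are not reported here. Gene overlaps come from GENCODE M21 (GRCm38) by gene ID, and promoters from RefSeq. Coordinates are given only for the promoters, since that build differs from mm39.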

Additional observations from a re-analysis of the deposited data

Results flagged for a closer look

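In groups of 4 libraries, the gap of the highest or lowest library to its neighbour was divided by the range of the group and compared with Dixon's 95% critical value for that size. This was done for the 9 enzymes in AOAH and in vehicle, 18 groups in all; 4 libraries stood apart, and chance alone marks about 1 group in 20. Idh3a was highest in AOAH 2 at 115 TPM (gap over range 0.878). Suclg2 was highest in AOAH 3 at 37.7 TPM (0.856) and lowest in vehicle 4 at 34.7 TPM (0.840), a library that the PC comparison did not use. Mdh2 was lowest in AOAH 1 at 368 TPM (0.924), where the other 3 AOAH libraries lay within 1 TPM of each other.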

How the results depend on the processing

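With AOAH, 6 members were called; quantile normalization left 2 (Idh3a and Dlat), the replicate block by batch number 3 (Idh3a, Dlat and Dlst), no filter 4, and leaving out 1 library 3 to 5, with 3 without AOAH 4 or without vehicle 2. The median log2 change of the members with AOAH was 0.06 after quantile normalization (0.0611) and 0.0784 to 0.122 with 1 library left out, against 0.10. With PC, 5 members were called; no filter left 3, the replicate block 3 (Cs, Idh3a and Suclg2), and leaving out 1 library 2 to 5, with 2 without PC 2, vehicle 1 or vehicle 3 and 3 without PC 1 or PC 3. Between AOAH and PC, 7 or 8 members were called throughout, and the median log2 difference was 0.20 after quantile normalization and 0.235 to 0.262 with 1 library left out. Idh3b, never called, changed sign with PC after quantile normalization (0.00344) and ranged from -0.0517 to 0.0125 with 1 library left out, positive without PC 2. Of 414 refits of single members, 359 kept direction and side of the threshold, 53 lost a call, 2 changed sign and 0 gained a call. Beyond the losses given beside each result, the replicate block changed no other call of a member. The other gene lists were put through the same settings after the data were seen, and their values stand beside their counts. The cause of these changes was not tested. With 3 or 4 libraries a group and changes mostly under 0.25 on the log2 scale, calls near the threshold depend on single libraries, and counting precision is unknown because TPM keeps no depth.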
